A study of Mus musculus with 12 samples.

Results

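Keratins are the intermediate filament proteins of epithelial cells, and 52 keratin genes were measured among 19937 genes on 12 arrays of mouse liver cells and liver organoids. They were taken as every gene whose symbol is Krt followed by a number, read from the array rows that name 1 gene only. Each of the 52 had a single such row. By where each keratin is known to be made, 7 were grouped as simple epithelial keratins, 4 as injury and activation keratins, 15 as keratins of stratified epithelia, 22 as hair and hair follicle keratins, and 4 as other keratins. The place of Krt80 in the simple group is a choice made here.

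A keratin filament is built from pairs of a type I and a type II chain, and a chain that finds no partner is degraded. Hepatocytes make the pair Krt8 and Krt18 alone, whereas bile duct cells add Krt7 and Krt19, so that the latter serve as markers of the duct lineage in the liver. Krt6a, Krt6b, Krt16 and Krt17 are known from wounded or activated skin, and the keratins of stratified epithelia from the layers of the epidermis and of the lining of the mouth and oesophagus.

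The study asked what follows when Yap, the transcriptional co-activator held back by the Hippo pathway, is switched on in the liver. All animals were of the C57Bl6 background, and each of 4 groups had 3 libraries. The first group was sorted YFP-positive liver cells labelled as uninduced hepatocytes. The second was wild-type organoids grown for 2 weeks. Organoids of the third group (Yap-off) came from livers in which Yap had been on for 3 weeks and were then grown for 2 weeks without doxycycline, with Yap off. Those of the fourth (Yap-on) had the same 3 weeks in the liver and 2 weeks in culture with doxycycline, with Yap on. Animal age, the promoter that drives Yap or Cre, and whether libraries of a group came from separate animals are not stated in the labels. The p-values thus speak of the spread among these libraries alone, which may be technical. Values are log2 intensities, as made by the authors with RMA. They have no true zero, and the level of 1 gene's probes cannot be set against that of another's.

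The libraries were first checked against markers of liver cells. Those labelled hepatocyte 2, wild-type organoid 1 and wild-type organoid 3 stood apart from the other 9. The summed intensity of 8 macrophage markers was 20975, 12206 and 18812 in those 3 and 153 to 463 in the rest, and that of 7 endothelial markers was 3053, 9790 and 5891 against 59.8 to 87.8. All 8 macrophage markers and all 7 endothelial markers exceeded the array median there, against 2 to 5 and 0 to 1 elsewhere. Cyp2e1, a cytochrome P450 of mature hepatocytes, read 10.14, 10.03 and 9.90 in those 3 libraries and 2.74 to 3.22 in hepatocytes 1 and 3 and wild-type organoid 2. The hepatocyte and wild-type organoid groups therefore each hold libraries of both kinds, which goes against their labels, and each is given by library below. Of 10 hepatocyte markers, 10 fell from Yap-off to Yap-on organoids, as did 12% of all genes, with sums of 30263 to 37217 against 3237 to 3741. Yap-off libraries also had a high level of the X-linked transcript Xist (8.49 to 9.20) and Yap-on libraries a low one (3.14 to 3.20). Sex, as this gene reads it, and Yap state therefore cannot be told apart. Xist was also low in the wild-type organoids (3.14 to 3.30) and hepatocyte 2 (2.995), and high in hepatocytes 1 and 3 (8.82 and 8.999). In bulk RNA, fewer cells of a type and less RNA per cell cannot be told apart either.

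Promoter sequence was looked up for 12 keratins: the simple keratins, the injury keratins and Krt33b. The set of promoter windows at hand (GRCm38.p6) held 6 of them: Krt7, Krt8, Krt18, Krt20, Krt23 and Krt33b. It lacked Krt19, Krt80 and the injury keratins, although all 52 keratins matched a RefSeq gene. Each window runs from 250 bases before the transcription start to 50 after it. It was searched on both strands for the TEAD motif GGAATG, bound by the DNA-binding partners of Yap, the AP-1 motif TGANTCA and the GC box GGGCGG. Of all 32851 windows, 14.7% hold the TEAD motif, 7.81% the AP-1 motif and 35.7% the GC box. The 250 bases before the start are shown for Krt7 and Krt20, the keratins with a match, and for Krt23, which stood above both control groups in the tests below and had none. Capitals mark the matches, and position -1 is the base before the start.
Krt7: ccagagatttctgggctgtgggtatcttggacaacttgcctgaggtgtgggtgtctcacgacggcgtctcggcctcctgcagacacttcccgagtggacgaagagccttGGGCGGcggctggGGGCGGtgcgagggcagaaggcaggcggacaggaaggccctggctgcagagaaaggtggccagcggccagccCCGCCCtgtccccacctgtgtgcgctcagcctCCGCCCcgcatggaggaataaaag
Krt20: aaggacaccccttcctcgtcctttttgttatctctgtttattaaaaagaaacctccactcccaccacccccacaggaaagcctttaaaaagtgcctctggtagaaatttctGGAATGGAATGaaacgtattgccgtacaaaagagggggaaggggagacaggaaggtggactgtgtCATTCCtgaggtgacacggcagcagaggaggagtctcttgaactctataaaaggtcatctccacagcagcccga
Krt23: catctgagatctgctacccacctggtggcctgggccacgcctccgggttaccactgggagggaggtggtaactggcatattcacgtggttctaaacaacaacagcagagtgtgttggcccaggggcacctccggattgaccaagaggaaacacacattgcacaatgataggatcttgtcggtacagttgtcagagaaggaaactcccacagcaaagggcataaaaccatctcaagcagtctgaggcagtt

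The Krt7 stretch lies at chr15:101412153-101412402 on the plus strand and holds 4 GC boxes, at -141, -128, -56 and -24. The Krt20 stretch, at chr11:99438154-99438403 on the minus strand, holds 3 TEAD matches, at -139, -134 and -74, of which the first pair overlap by 1 base. The Krt23 stretch, at chr11:99493121-99493370 on the minus strand, holds none of the 3 motifs. Nor do the windows of Krt8 (chr15:102004293-102004592, minus strand) and Krt18 (chr15:102027966-102028265, plus strand). Krt8 and Krt18 are neighbours on chromosome 15, as are Krt20 and Krt23 on chromosome 11. A match is a run of letters and does not show that a factor binds there.

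All 7 simple epithelial keratins were higher in Yap-on than in Yap-off organoids, with no overlap between the groups, as were 24.6% of all genes. Krt19 rose 29.5-fold and Krt7 7.82-fold, whereas the hepatocyte pair Krt8 and Krt18 rose 1.94-fold and 1.47-fold from levels that were already high. The 4 injury keratins did not pass the test. Over all keratins, 8 of 52 rose and 1 fell at an adjusted p under 0.05 (limma on the 6 arrays compared, Benjamini-Hochberg over all 19937 genes). Among all genes 19.1% rose, 12% fell and 31.2% passed in either direction. The median difference was 0.96 log2 units over the simple keratins, -0.15 over all keratins and -0.08 over all genes. The fit on these 6 arrays leaves out the spread of the control groups. With all 12 arrays 0 of 52 keratins and 11.5% of all genes passed (15 keratins had an unadjusted p under 0.05, as did 27.2% of all genes), and in a fit on 10 arrays (leaving out hepatocyte 2 and wild-type organoid 2), 8 did, as did 29.7% of all genes. The libraries left out of the fit on 10 arrays were chosen for differing from their groups in these data, which narrows the spread it uses. Without Yap-off 1 the count of keratins was 16 (6 higher and 10 lower), and without Yap-on 2 it was 5. In those fits 39.4% and 20.4% of all genes passed.

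Krt19, the type I keratin that marks bile duct cells and liver progenitors, read 12.13, 12.25 and 12.01 in Yap-on organoids and 7.56, 6.997 and 7.18 in Yap-off organoids. The wild-type organoids read 4.28, 9.28 and 4.92, and the libraries labelled hepatocyte 10.21, 4.95 and 9.82. The Yap-on libraries were the highest of the 12, and those of the other 3 groups overlapped. Yap-on exceeded Yap-off by 4.88 ± 0.16 (SE, n = 3 and 3) log2 units, with a 95% interval of 4.50 to 5.26 (limma, adjusted p = 2.3e-06; 0.064 on all 12 arrays, 1.7e-07 on 10).

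Krt7, the type II keratin of ducts that pairs with Krt19, read 11.32, 11.34 and 11.07 with Yap on and 7.63, 9.05 and 8.15 with Yap off. In wild-type organoids it read 3.70, 10.46 and 3.35, and under the hepatocyte label 9.83, 3.47 and 9.79. Again the Yap-on libraries were above all others, and the 3 libraries with high macrophage markers were the lowest. The Yap-on mean exceeded the Yap-off mean by 2.97 ± 0.33 (SE) log2 units (limma, adjusted p = 0.00087; 0.37 on all 12 arrays, 7.7e-05 on 10).

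Krt8, the type II chain of hepatocytes, was at 12.42, 12.41 and 12.28 with Yap on and at 11.38, 11.42 and 11.44 with Yap off. Wild-type organoids gave 5.94, 12.15 and 7.495, and libraries labelled hepatocyte 11.92, 6.05 and 11.75. Its range among the 6 Yap libraries was therefore narrow beside that among the controls. The difference between Yap-on and Yap-off was 0.96 ± 0.09 (SE) log2 units (limma, adjusted p = 0.00041; 0.75 on all 12 arrays, 0.044 on 10).

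Krt18, the type I partner of Krt8, was at 12.36, 12.42 and 12.27 with Yap on and at 11.82, 11.86 and 11.72 with Yap off. It read 6.61, 12.28 and 7.60 in wild-type organoids and 12.11, 7.15 and 12.23 under the hepatocyte label. As for Krt8, wild-type organoid 2 and hepatocytes 1 and 3 lay near the Yap libraries, and the other 3 controls far below. Yap-on exceeded Yap-off by 0.55 ± 0.09 (SE) log2 units (limma, adjusted p = 0.0053; 0.85 on all 12 arrays, 0.077 on 10).

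**Figure D1:**
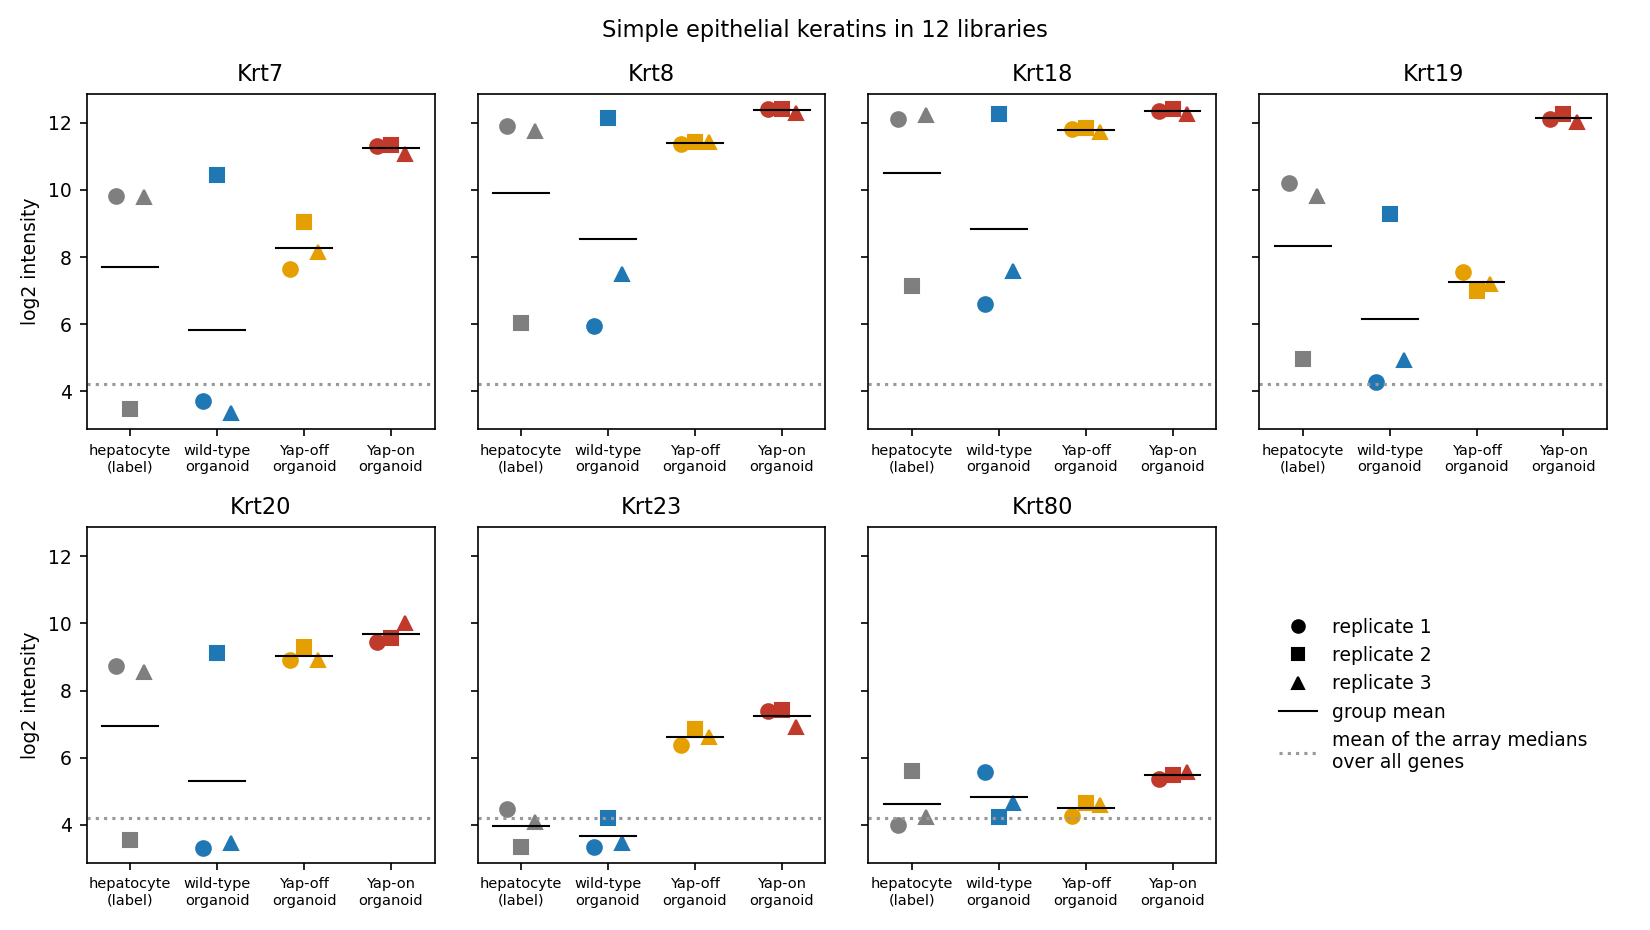
Log2 intensity of the 7 simple epithelial keratins in each of 12 libraries, by group as labelled, with replicate numbers as marker shapes, bars for group means and a dotted line for the mean of the array medians. The Yap-on libraries lie above the Yap-off libraries for every one of the 7, and the hepatocyte and wild-type groups each split widely for Krt7, Krt8, Krt18, Krt19 and Krt20.

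Krt20, a type I keratin best known from intestinal and umbrella cells, read 9.44, 9.58 and 10.001 in Yap-on and 8.92, 9.29 and 8.92 in Yap-off organoids. It read 3.32, 9.13 and 3.46 in wild-type organoids and 8.73, 3.56 and 8.56 under the hepatocyte label. The Yap-on libraries did not overlap any other group, and the 3 libraries with high macrophage markers were again the lowest. The difference of 0.63 ± 0.18 (SE) log2 units passed narrowly (limma, adjusted p = 0.037). That call was lost in 10 of 18 alternative settings, with an adjusted p of 0.067 after renewed quantile normalization, 0.84 on all 12 arrays and 0.02 on 10.

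Krt23, a type I keratin known to be induced in stressed liver, read 7.39, 7.41 and 6.91 in Yap-on and 6.38, 6.85 and 6.61 in Yap-off organoids. All 6 control libraries were lower, at 3.34, 4.20 and 3.45 in wild-type organoids and 4.46, 3.33 and 4.07 under the hepatocyte label. Of the 7 simple keratins it was 1 of those in which both Yap groups lay above every library labelled hepatocyte, and it alone also separated Yap-off from wild-type organoids. The Yap-on to Yap-off difference was 0.62 ± 0.18 (SE) log2 units (limma, adjusted p = 0.042). The call was lost in 9 of 18 alternative settings (adjusted p = 0.21 after renewed quantile normalization, 0.24 on all 12 arrays, 0.03 on 10).

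Krt80, a type II keratin that lies next to Krt7 and was counted here with the simple group, read 5.37, 5.48 and 5.58 in Yap-on and 4.27, 4.65 and 4.60 in Yap-off organoids. It read 5.57, 4.24 and 4.65 in wild-type organoids and 4.0035, 5.60 and 4.24 under the hepatocyte label. Here hepatocyte 2 and wild-type organoid 1, which were low for the other simple keratins, were as high as the Yap-on libraries. The difference between Yap-on and Yap-off was 0.97 ± 0.13 (SE) log2 units (limma, adjusted p = 0.002; 0.17 on all 12 arrays, 0.009 on 10).

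The summed intensity of the 7 simple keratins was 17392 to 19355 in Yap-on and 7184 to 7867 in Yap-off organoids. It was 10849 and 10439 in hepatocytes 1 and 3 and 12134 in wild-type organoid 2. In hepatocyte 2, wild-type organoid 1 and wild-type organoid 3 it was 320, 260 and 461. The 3 libraries with the lowest keratin sums were those with the highest macrophage and endothelial sums, and the part of other cells in these keratin levels was not tested.

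The injury keratins read 2.43 to 4.73 over the 12 libraries. Krt6a read 3.86, 4.73 and 3.38 in Yap-on and 3.59, 3.74 and 3.70 in Yap-off organoids, a difference of 0.31 log2 units (limma, adjusted p = 0.46), and 3.22 to 3.97 in the 6 control libraries. A single library, Yap-on 2, stood above the rest. Krt6b ranged from 2.70 to 3.10 over the 12 libraries, with a difference of -0.03 (limma, adjusted p = 0.79).

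Krt16 read 2.59, 2.71 and 2.43 in Yap-on and 2.76, 2.98 and 3.00 in Yap-off organoids. The groups did not overlap, and the difference of -0.34 log2 units did not pass (limma, adjusted p = 0.07). It passed in 2 of 17 alternative settings (limma, lowest adjusted p = 0.022). Krt17 read 2.99 to 3.97 over the 12 libraries, with a difference of -0.06 (limma, adjusted p = 0.7). The highest Krt17 value was in wild-type organoid 3, which was also the highest control for Krt6a.

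The keratins of stratified epithelia and of hair were near the low end of the arrays. The 15 stratified keratins read 2.43 to 5.09, and 12 of them never exceeded the median of the array, which was 4.14 to 4.34 over the 12 libraries. Krt10, the keratin of the upper epidermal layers, was the highest, at 4.87, 4.86 and 5.09 in Yap-on and 4.09, 4.62 and 4.32 in Yap-off organoids. It was the 1 of 15 that rose (difference 0.60 ± 0.16 SE, limma, adjusted p = 0.027). After renewed quantile normalization the 5 keratins called higher were simple ones, so that this call was lost. The basal keratins Krt5 and Krt14 differed by 0.03 and 0.13 log2 units (limma, adjusted p = 0.77 and 0.32).

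Among the 22 hair keratins 0 rose and 1 fell. Krt34 read 3.42, 3.60 and 3.60 in Yap-on and 3.88, 4.38 and 4.42 in Yap-off organoids (difference -0.69 ± 0.16 SE, limma, adjusted p = 0.019). Krt33b was the 1 hair keratin above the array median by over 2 log2 units in a library, with 5.69 to 6.35 over the 12 libraries. Its difference was -0.19 (limma, adjusted p = 0.17). After renewed quantile normalization it was -0.42 and passed (limma, adjusted p = 0.03). The other 21 read 2.33 to 4.42, and 19 of them never exceeded their array's median.

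**Figure D2:**
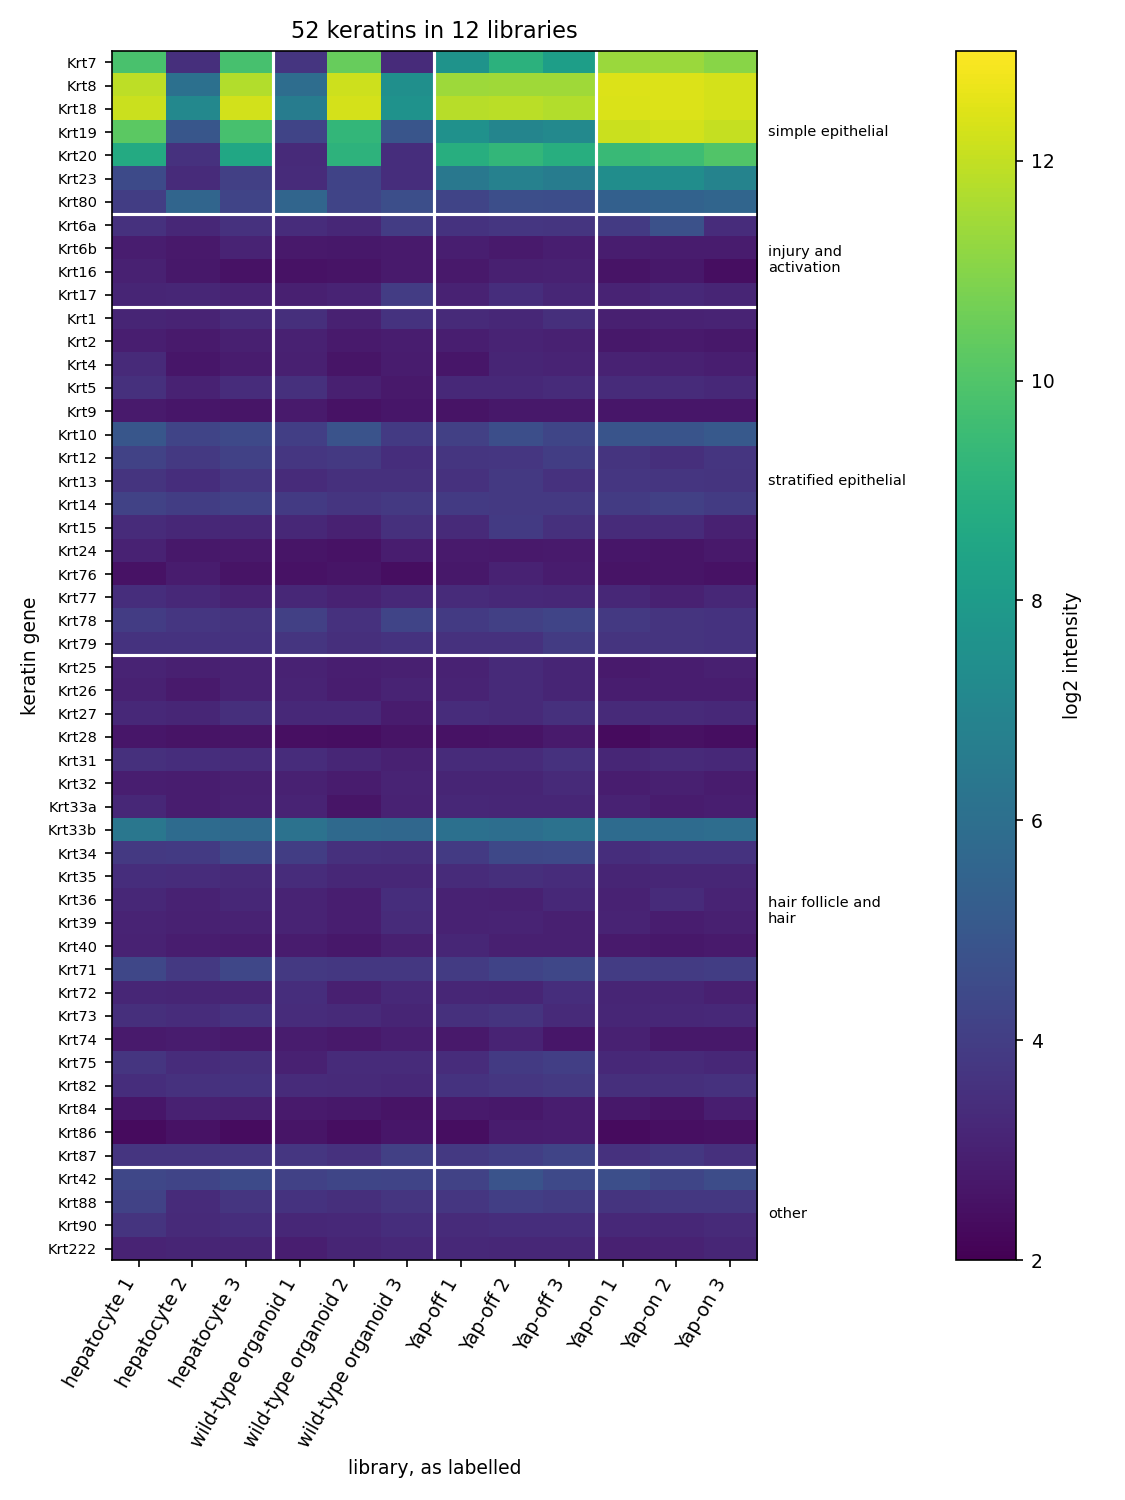
Log2 intensity of the 52 keratins (rows, grouped by class) in 12 libraries (columns, in the order of the labels). The brightest cells lie in rows of simple keratins. Among these, Krt80 reached at most 5.60 in any library, and Krt23 at most 4.46 in the hepatocyte and wild-type libraries. The other classes reached at most 5.09 in any library, apart from Krt33b, which reached 6.35.

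Groups did not overlap for 31 keratins, 9 higher and 22 lower in Yap-on organoids, where 24.6% and 28.9% of all genes were so placed. The 40 keratins other than the simple keratins, the injury keratins and Krt33b had a median difference of -0.19, and 33 were below 0. The lowest 30% of all genes by mean showed the same kind of shift: their median was -0.15 and 87.6% were below 0. The lower quartile of the arrays was 2.97 to 3.01 with Yap on and 3.09 to 3.21 with Yap off, and after renewed quantile normalization the medians were -0.11 and -0.06. Both medians thus lay slightly below 0, that of the 40 keratins somewhat further than that of the low genes. For the 23 of those keratins within the lowest 30%, the median was -0.18, and -0.07 after renewed quantile normalization.

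**Figure D3:**
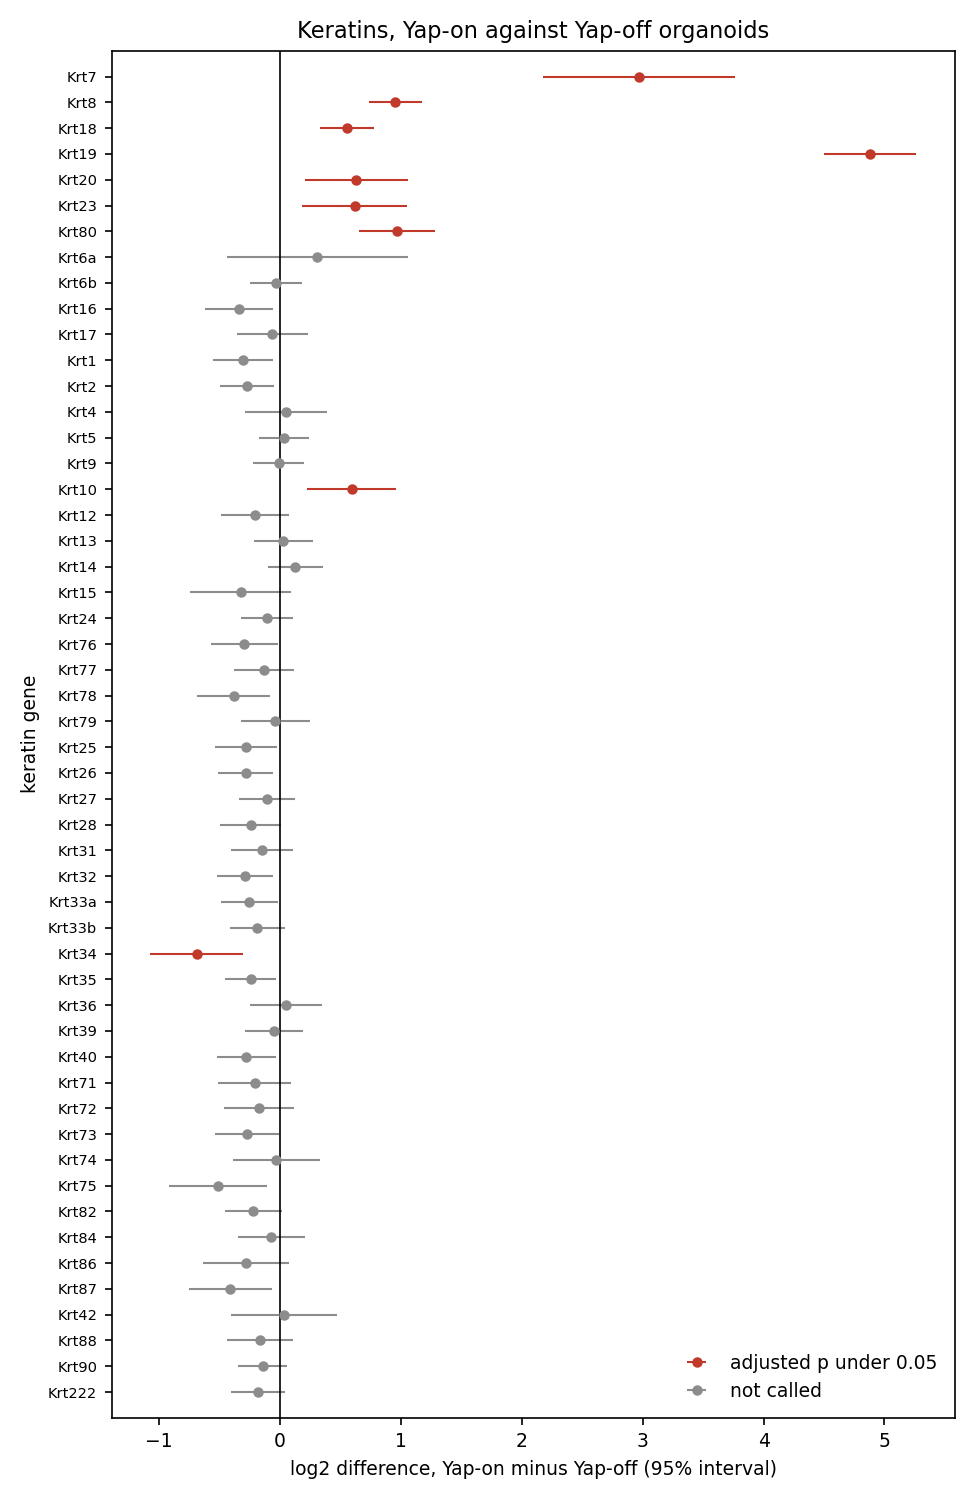
Log2 difference, Yap-on minus Yap-off, for the 52 keratins with its 95% interval from limma on 6 arrays. Red marks an adjusted p under 0.05 and grey the keratins not called. Krt19 (4.88) and Krt7 (2.97) stand far to the right, and most stratified and hair keratins lie slightly left of 0.

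Comparisons with the control groups were fitted on all 12 arrays, share control libraries, and rest on groups with libraries that go against their labels. By Xist, sex and group cannot be told apart in Yap-off against wild-type organoids, and the hepatocyte label holds libraries with high and with low Xist. Against wild-type organoids, Yap-off organoids had 1 keratin called of 52 (1.42% of all genes were called higher), namely Krt23, which was higher by 2.95 ± 0.32 (SE) log2 units (limma, adjusted p = 0.003). Yap-on organoids had 2 (background 4.02% higher): Krt23, by 3.57 (limma, adjusted p = 7.3e-05), and Krt19, by 5.97 ± 1.49 (SE) (limma, adjusted p = 0.048). The Krt19 call was lost in 8 of 18 alternative settings. Without hepatocyte 2 and wild-type organoid 2 the Krt19 difference was 7.53 (limma, adjusted p = 1.2e-08). That fit keeps wild-type organoids 1 and 3 as the controls, with Krt19 at 4.28 and 4.92 and high macrophage and endothelial sums. The part of other cells in this difference was not tested. The libraries left out of that fit were chosen for differing from their groups in these data. This narrows the spread on which its p-value rests.

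Against the libraries labelled hepatocyte, Krt23 was the 1 keratin called in each comparison. It was higher by 2.66 ± 0.32 (SE) in Yap-off (limma, adjusted p = 0.0047; background 0.878% higher) and by 3.28 in Yap-on organoids (limma, adjusted p = 0.00015; background 4.26% higher). The Krt23 call against either control group was kept in all 18 alternative settings of each of these 4 comparisons, with a largest adjusted p of 0.038. For Krt19 the difference from the hepatocyte label was -1.08 in Yap-off (limma, adjusted p = 0.85) and 3.81 in Yap-on organoids (limma, adjusted p = 0.19), and neither passed. Without hepatocyte 2 and wild-type organoid 2 both passed, at -2.77 in Yap-off (limma, adjusted p = 1e-04) and 2.12 in Yap-on organoids (limma, adjusted p = 0.00015). The limit given above for that choice of libraries holds here too.

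Wild-type organoids against libraries labelled hepatocyte gave 0 keratins (background 0.0502%), and 4 of 52 with an unadjusted p under 0.05, where 8.84% of all genes had one. Without hepatocyte 2 and wild-type organoid 2, which leaves wild-type organoids 1 and 3 against hepatocytes 1 and 3, 10 keratins (and 30.7% of all genes) passed, among the keratins Krt7 (difference -6.29, limma, adjusted p = 1.3e-06) and Krt19 (difference -5.42, limma, adjusted p = 3e-07). Those 2 wild-type libraries are ones with high macrophage and endothelial sums, and the part of other cells was not tested. Xist was low in them and high in hepatocytes 1 and 3, so that sex and group cannot be told apart there. The libraries left out of that fit were chosen because each differed from the rest of its group in these data. That choice narrows the spread within groups and sets the 2 kinds of library against each other. The p-values of that fit are therefore no independent test.

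The order of the group means differed among the simple keratins. For Krt7, Krt8, Krt18, Krt20 and Krt23 it ran Yap-on, Yap-off, hepatocyte label, wild-type. Only the first step was free of overlap for Krt7, Krt8 and Krt18, and the first and second for Krt20 and Krt23. For Krt19 the hepatocyte label came second and Yap-off after it, and again only the first step was free of overlap.

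Keratin filaments are anchored at desmosomes, which join neighbouring cells, and at hemidesmosomes, which bind the cell to its matrix. Of 11 measured desmosome genes 6 rose and 0 fell in Yap-on against Yap-off organoids, with a median difference of 1.09. Among all genes 19.1% rose and 12% fell. Desmoplakin (Dsp), the protein that ties keratins to the desmosome, read 9.62, 9.74 and 9.30 with Yap on and 7.81, 7.29 and 7.63 with Yap off, higher by 1.98 (limma, adjusted p = 0.00028; 0.45 on all 12 arrays). Of 4 measured plakophilins, desmosomal plaque proteins, 3 rose, by 1.77 for Pkp1, 1.70 for Pkp3 and 1.29 for Pkp4 (limma, adjusted p = 0.003, 0.0012 and 0.0026), and Pkp2 differed by 0.32 (limma, adjusted p = 0.18). On all 12 arrays 3 of the 11 passed, as did 11.5% of all genes.

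Of 12 hemidesmosome and linker genes 6 rose and 2 fell (19.1% and 12% among all genes), with a median of 0.38. Itga6 and Itgb4, the paired integrin chains of the hemidesmosome, rose by 2.60 and 2.21 (limma, adjusted p = 0.00022 and 0.00031), and periplakin (Ppl), a cytolinker, by 1.28 (adjusted p = 0.026). Dystonin (Dst), whose epithelial form links keratins to the hemidesmosome, went the other way, at 5.39, 5.10 and 4.84 with Yap on and 7.74, 6.86 and 7.24 with Yap off (difference -2.17, limma, adjusted p = 0.00085). On all 12 arrays 3 of the 12 rose and 0 fell, where 11.5% of all genes passed in either direction.

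Of 15 other intermediate filament genes 0 rose and 3 fell (19.1% and 12% among all genes). Vimentin (Vim), the filament of mesenchymal cells, read 4.66, 4.52 and 4.85 in Yap-on organoids and 10.13, 9.88 and 9.54 in Yap-off organoids. All 6 control libraries were high as well, at 9.69 to 10.90, so that the Yap-on organoids alone were low. The difference was -5.17 ± 0.17 (SE) log2 units (limma, adjusted p = 2.3e-06, and 6.6e-06 on all 12 arrays). Peripherin (Prph) and desmin (Des) fell by 0.55 and 0.34 (limma, adjusted p = 0.02 and 0.038). On all 12 arrays 1 of the 15 passed, as did 11.5% of all genes. The summed intensity of 8 mesenchymal markers was 89.2 to 93.1 with Yap on and 348 to 393 with Yap off. Of the 8, Reln (difference -4.34) and Dcn (-2.20) fell (limma, adjusted p = 1.3e-06 and 0.00048), and the other 6, the collagens Col1a1, Col1a2 and Col3a1 among them, differed by -0.37 to -0.21 and did not pass. The part of mesenchymal cells in the Vim difference was not tested.

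Of 10 epidermal barrier genes 3 rose and 0 fell (19.1% and 12% among all genes), with a median of -0.04. Involucrin (Ivl), a protein of the cornified envelope, read 7.96, 7.56 and 8.07 with Yap on and 4.02, 4.61 and 5.16 with Yap off, higher by 3.26 (limma, adjusted p = 3e-04; 0.1 on all 12 arrays). It was also high, at 6.24 to 7.89, in hepatocytes 1 and 3 and wild-type organoid 2. Sfn, the epithelial 14-3-3 protein, rose by 2.35, and loricrin (Lor), another envelope protein, by 2.03 (limma, adjusted p = 0.00011 and 0.00012). On all 12 arrays 2 of the 10 passed, as did 11.5% of all genes.

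**Figure D4:**
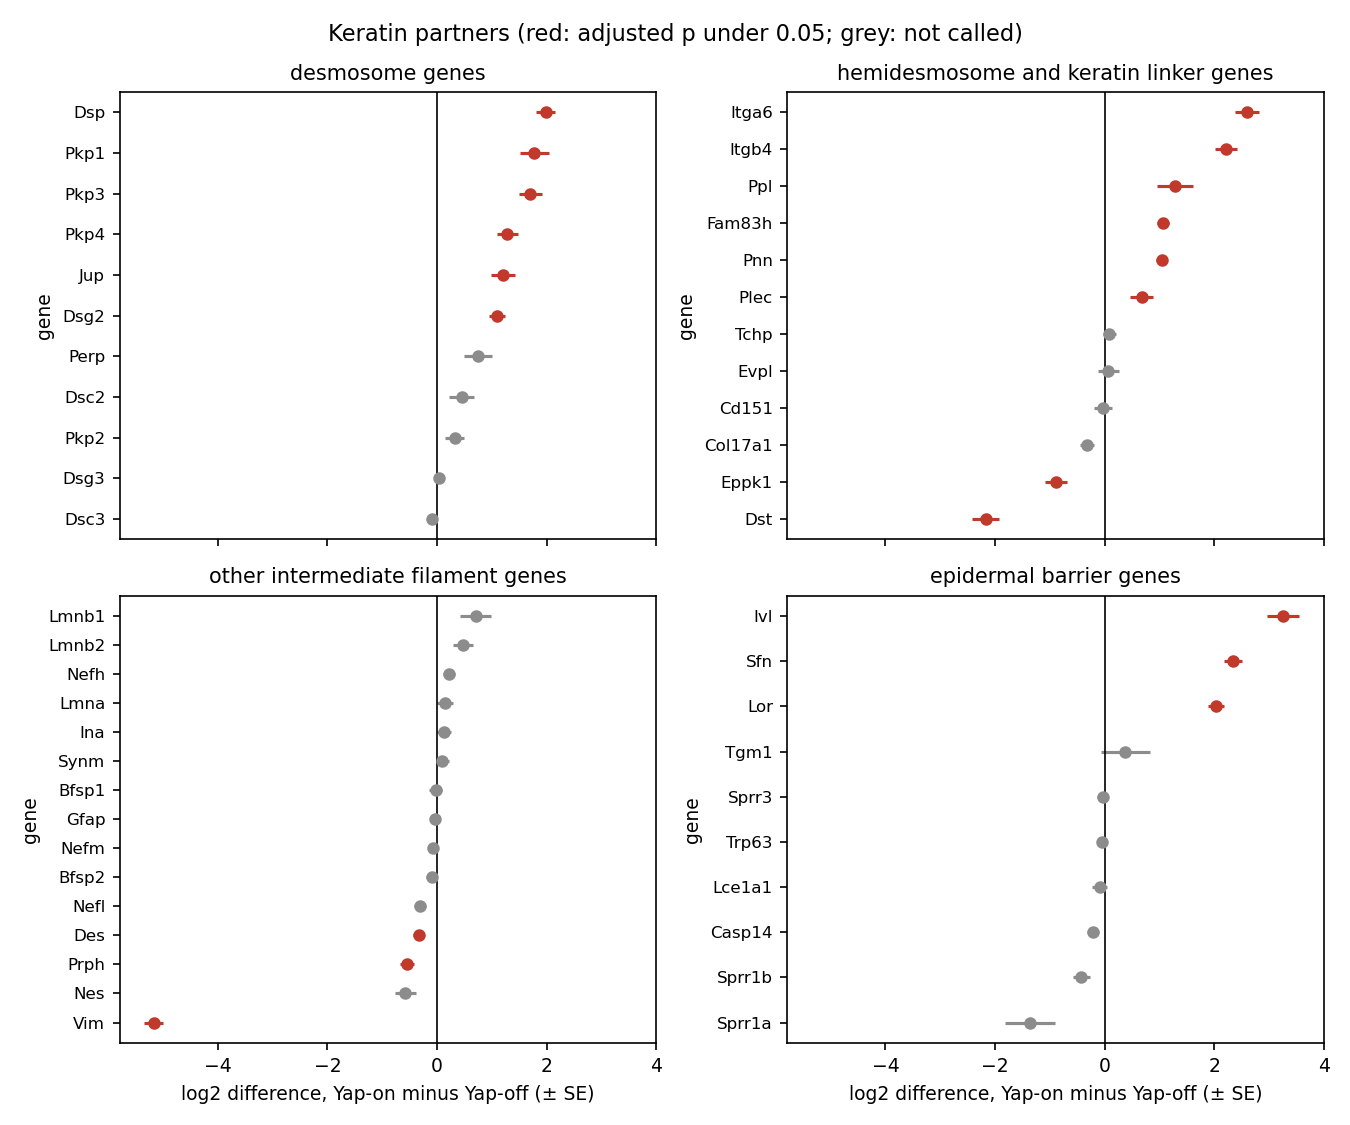
Log2 difference, Yap-on minus Yap-off, with SE, for the measured genes of 4 lists of keratin partners; red marks an adjusted p under 0.05. Dsp, Itga6, Itgb4 and Ivl lie right of 0, and Vim (-5.17) and Dst (-2.17) left of it.

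Bile duct markers moved with the keratin difference between Yap-on and Yap-off organoids, whereas the mesothelial markers as a list did not. Among all genes 19.1% rose and 12% fell. Of 7 measured bile duct markers 6 rose, with sums of 5185 to 5757 against 1194 to 1516. Of 6 mesothelial markers 1 rose and 1 fell, with a median difference of -0.10. Their sum was 3485 to 3911 with Yap on and 156 to 388 with Yap off. Mesothelin (Msln) was the 1 above the array median in either group, so that the sum mostly follows this gene. Mesothelial cells also make Krt7, Krt8, Krt18 and Krt19, and their part in the rise was not tested.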

How the data were processed

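Total RNA of 12 libraries was amplified, labelled with biotin and read on 1-colour Affymetrix mouse gene arrays. The authors deposited intensities made with RMA, per the submitters' processing notes, which give no version; RMA subtracts background, quantile-normalizes the arrays and summarizes the probes. The deposited numbers are linear although RMA yields log2 values, and log2 was therefore taken here. The genome build of the array files is not stated in the labels, and RefSeq coordinates are those of GRCm38.p6. Of 34760 rows, 22961 were in the probe table; 1321 rows with several genes were left out, and 21640 with 1 gene were kept. Where a gene had several rows (954 genes), its highest-mean row was taken. No filter on low values was applied, and no 2 arrays were identical.

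Differences were tested with limma 3.58.1 in R 4.3.3 (lmFit and eBayes) and p-values adjusted by Benjamini-Hochberg across the 19937 genes, with calls at under 0.05. Yap-on against Yap-off was fitted on 6 arrays, since control libraries differed widely within their groups, and the other 5 comparisons on all 12. Simulated data with known changes were used to check the script. With 3 against 3 libraries, an exact permutation test of 1 gene cannot go below 0.1, so none is given. Values over the libraries were set out for the simple and injury keratins. The same holds for any other keratin called at a log2 difference of at least 1 or reaching 2 above its array's median. Of these, Krt6b, Krt17 and Krt33b are given as ranges, and Krt6a and Krt16 by library in the Yap groups only. Of each partner list, up to 4 called genes with the largest difference are named; Krt5, Krt10, Krt14, Krt34, Pkp2 and the mesenchymal genes were named after their values were seen. The members and the lists were chosen with earlier results of these data known. The number of arrays limits the precision. Alternatives changed the normalization, the row per gene, the low filter, the arrays fitted, the eBayes options, the replicate block, the threshold and the libraries.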

Additional observations from a re-analysis of the deposited data

How the results depend on the processing

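In Yap-on against Yap-off organoids 9 keratins were called, 7 of them simple keratins. Among all genes 31.2% were called. All 12 arrays gave 0 and 0 (11.5% of all genes), and a 2-fold minimum 2 and 2 (12.7%). An adjusted p under 0.01 gave 5 keratins (16.5%). An intensity trend with robust eBayes gave 19 (8 higher, 11 lower), where 35.6% of all genes were called. Renewed quantile normalization gave 5 higher and 2 lower (25.8% of all genes), and array weights 7 higher and 5 lower (35.8%). Leaving out 1 library gave 5 to 16 keratins (16 without Yap-off 1, 5 without Yap-on 2) and 5 to 7 simple keratins. Without Yap-off 1 and without Yap-on 2, 39.4% and 20.4% of all genes were called. The Krt19 and Krt7 calls were lost on all 12 arrays and under no other of 18 settings.

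Without hepatocyte 2 and wild-type organoid 2, calls were 9 in place of 1 for Yap-off against wild-type organoids, 9 in place of 2 for Yap-on against wild-type, 10 in place of 0 for wild-type against the hepatocyte label, 3 in place of 1 for Yap-off against it, and 6 in place of 1 for Yap-on against it. Of all genes 32.3%, 41%, 30.7%, 14% and 21.6% were called in those fits. The wild-type libraries left in them are those with high macrophage and endothelial sums. Those left out were chosen for differing from their groups in these data, so the counts in these fits are no independent test. Krt7 changed sign there in Yap-off against the hepatocyte label (-1.53, adjusted p = 0.015, against 0.58 as reported). Array weights gave 9, 10, 8, 2 and 8 for the same 5 comparisons, with 26.1%, 41.6%, 27.2%, 12.2% and 31.8% of all genes called. For Yap-on against wild-type organoids, the 6 arrays compared, the replicate block and an adjusted p under 0.01 each gave 1. Of all genes 3.51%, 4.11% and 2.73% were called there. Leaving out 1 library gave 1 to 4, 1 to 9, 0 to 0, 1 to 1 and 1 to 2. The 4 and the 9 came without wild-type organoid 2, where 19.4% and 30.2% of all genes were called.

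Same-numbered deviations correlated at -0.71 to 0.12 over the 6 comparisons. Those from -0.71 to -0.51 came from wild-type organoids against the hepatocyte label, groups that each hold libraries of both kinds. Whether replicate numbers pair the libraries cannot be settled from these values. With the replicate block, 7 keratins and 27.1% of all genes were called in Yap-on against Yap-off organoids. Krt20 (limma, adjusted p = 0.06) and Krt23 (limma, adjusted p = 0.051) were lost. Over all genes, calls ranged from 2283 to 7853 (6212 as reported) in that comparison and from 61 to 6449 (520), 544 to 8293 (1091), 0 to 6117 (10), 84 to 2792 (378) and 666 to 6334 (1234) in the other 5, in the order above. Readings near the low end of the arrays limit what can be said of the stratified, hair and injury keratins.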
